A study of Mus musculus with 211 samples.

Results

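Sprouty and Spred proteins and the ERK phosphatase DUSP6 are feedback inhibitors of signalling from receptor tyrosine kinases through RAS to the MAP kinase ERK, and SHC1 is an adaptor on the way in. The 7 genes *Spry1*, *Spry2*, *Spry4*, *Spred1*, *Spred2*, *Dusp6* and *Shc1* were taken by their Ensembl identifiers from the 48709 genes of the count matrix by a rule that uses no expression value, though with earlier results of these data known, and all 7 were measured. They were described in 211 single cells by age, by cell capture, and by the transcripts of *Elane* and *Mpo* (neutrophil elastase and myeloperoxidase, enzymes of the primary granules that are made in granulocyte precursors) and of *Mki67* (the proliferation antigen Ki-67) in the same cells.

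The cells came from cochleae of CD1 mice carrying an *Lfng*-EGFP transgene on a bacterial artificial chromosome, in which the *Lfng* regulatory sequence drives GFP. GFP-positive, propidium iodide-negative cells were sorted, captured on the Fluidigm C1 microfluidic platform and sequenced one by one. Cells of postnatal day 60 (P60) made up 48.3% of the 211 and came in 8 captures, and cells of postnatal day 120 (P120) made up 51.7% in 4 captures, with 3 to 37 cells in a capture. No group was treated, every cell carried the transgene, and animals of either sex were pooled within a capture. The capture was therefore the smallest unit that could serve as a replicate. The p-values take captures as replicates, with a variance that the tests in part share between genes.

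When a growth factor or cytokine binds its receptor, phosphorylated tyrosines recruit SHC1 and GRB2, which bring the exchange factor SOS to RAS. RAS then activates a cascade of kinases that ends in ERK, and ERK switches on genes that include those of Sprouty proteins, which act back on the receptor and on RAS activation. It also switches on *Dusp6*, whose product removes phosphate from ERK. Spred proteins bring neurofibromin to the membrane, where it turns RAS off. In the developing organ of Corti, *Spry2* limits fibroblast growth factor signalling between hair cells and the neighbouring supporting cells. The same pathway carries signals of the G-CSF receptor and KIT in blood cell precursors.

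The reads per cell ranged from 41 to 5361476, with a median of 736455, and 164 cells had at least 50000 reads. The library label of adult supporting cells was checked against marker genes. A list of 15 supporting cell genes took 0.0490% of all reads, with a median over cells of 0.00911% and a highest value of 4.87%. Of the list 1 gene, *Hes5*, had no read in any cell, and every other gene had some. *Lfng*, another gene of the list, reached 111 CPM in a cell of capture 40. At least 10 reads in 3 or more genes of the list were found in 14 cells. A list of neutrophil genes took 16.1% of reads, and a list of general leukocyte genes passed the same limit in 175 cells. Among the 164 deeper cells, 161 passed the leukocyte list and 13 the supporting cell list, of which 11 passed both. All levels below were therefore measured in cells that mostly held leukocyte transcripts. *Spry2* reached 10 CPM (reads of a gene per 1000000 reads of the cell) in 46 of the 164 cells, and 45 of them passed the leukocyte list, as did all 76 cells with *Dusp6* and all 33 with *Shc1* at that level.

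The single-cell qPCR assays that the study purchased included pairs for *Spry2*, *Dusp6* and *Shc1*. These are shown because they mark the transcribed positions that its PCR reads, and because these are also the 3 members that carried nearly all the member reads here. They were placed on GRCm38 by exact match to annotated transcripts. The *Spry2* pair lies in the 5′ untranslated parts of exons 1 and 2 on the minus strand (chr14:105896600-105896618 and chr14:105893752-105893771). The *Dusp6* pair lies in coding sequence of exons 1 and 2 on the plus strand (chr10:99264039-99264058 and chr10:99264549-99264568). The *Shc1* pair lies in coding sequence of exons 6 and 7 of one transcript on the plus strand (chr3:89424194-89424212 and chr3:89424563-89424584). Each pair spans an intron, and no letter is capitalised.
Spry2 forward: ggagaggggttggtgcaaa
Spry2 reverse: aggtcttggcagtgtgttca
Dusp6 forward: gctgctgctcaagaaactca
Dusp6 reverse: tcggcctggaacttactgaa
Shc1 forward: ttgccaaccatcacatgca
Shc1 reverse: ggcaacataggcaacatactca

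Promoter windows of the same 3 genes are shown because the comparisons below turn on them. They were taken from RefSeq on GRCm38.p6, 300 bases around the start of each gene, and are printed 5′ to 3′ on the gene's own strand. Capitals mark matches to any of 6 motifs searched on both strands: ETS (CCGGAA), PU.1 (GAGGAA), C/EBP (TTGCNNCAA), AP-1 (TGANTCA), CRE (TGACGTCA) and GC box (GGGCGG).
Spry2, chr14:105896770-105897069, minus strand: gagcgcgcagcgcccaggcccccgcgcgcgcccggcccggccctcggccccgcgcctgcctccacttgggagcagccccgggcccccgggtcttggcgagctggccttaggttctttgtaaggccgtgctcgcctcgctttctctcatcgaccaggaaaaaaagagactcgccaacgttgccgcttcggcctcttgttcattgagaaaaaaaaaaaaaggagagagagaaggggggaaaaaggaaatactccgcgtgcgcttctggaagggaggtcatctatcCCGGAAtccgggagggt
Shc1, chr3:89418301-89418600, plus strand: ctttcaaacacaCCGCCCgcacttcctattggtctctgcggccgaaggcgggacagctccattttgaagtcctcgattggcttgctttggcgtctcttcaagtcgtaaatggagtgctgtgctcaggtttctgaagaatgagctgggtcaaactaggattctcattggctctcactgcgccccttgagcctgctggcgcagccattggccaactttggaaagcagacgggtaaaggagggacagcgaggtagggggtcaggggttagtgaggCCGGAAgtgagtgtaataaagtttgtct
Dusp6, chr10:99262981-99263280, plus strand: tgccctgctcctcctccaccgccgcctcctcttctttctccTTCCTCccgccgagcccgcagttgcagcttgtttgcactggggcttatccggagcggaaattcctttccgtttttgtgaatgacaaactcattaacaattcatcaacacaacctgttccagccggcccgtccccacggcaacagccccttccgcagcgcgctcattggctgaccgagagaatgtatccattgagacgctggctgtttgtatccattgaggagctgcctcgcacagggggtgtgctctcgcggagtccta
The *Spry2* and *Shc1* windows each held 1 ETS match, which 14.9% of 32851 mouse promoter windows hold. The *Shc1* window also held 1 GC box, on the other strand, as 35.7% of windows do. In the *Dusp6* window there was 1 PU.1 match on the other strand, written there as TTCCTC, against 28.3% of all windows. C/EBP, AP-1 and CRE motifs, present in 2.08%, 7.81% and 1.79% of windows, had no match in these 3. A second *Shc1* start has its own window, not shown, which held 1 AP-1 match and no match to the other motifs. A match describes letters and is no evidence of binding.

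In the files *Spry2* is ENSMUSG00000022114.4 (chr14:105891947-105896819), *Dusp6* ENSMUSG00000019960.7 (chr10:99263231-99267489) and *Shc1* ENSMUSG00000042626.13 (chr3:89418443-89430027), with GRCm38 positions of the whole genes. Per kilobase of exon, pooled over all reads, *Dusp6* was the highest of the members at 97.6 CPM per kb. *Spry2* followed at 59.7 CPM per kb and *Shc1* at 10.9 CPM per kb. The other 4 were far lower, with *Spry4* at 1.81, *Spred2* at 0.764, *Spred1* at 0.0964 and *Spry1* at 0.0125 CPM per kb. This order is a description of pooled reads, since single cells weighed heavily in it. Of the 27446 *Spry2* reads, 7 cells held 50% or more, and 5 cells did so for the 67303 *Dusp6* reads and for the 13577 *Shc1* reads. Of the 1894 *Spry4* reads, 98.7% came from 1 cell.

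At least 1 read of *Dusp6* was found in 123 of 211 cells (58.3%, exact 95% binomial interval 51.3% to 65%). *Spry2* was found in 73 cells (34.6%, 28.2% to 41.4%) and *Shc1* in 53 (25.1%, 19.4% to 31.5%). The less abundant members were found in 20 cells (*Spred1*, 9.48%), 14 cells (*Spred2*, 6.64%), 11 cells (*Spry4*, 5.21%) and 2 cells (*Spry1*, 0.948%). The libraries held no molecular identifiers, so these intervals cover counting error only and treat cells as independent draws. Reads of *Elane* and *Mpo* lay at low levels in most cells, so a level of at least 10 CPM in cells of at least 50000 reads was also used, and a cell at that level is called one that held the gene. That limit was chosen after the data were seen. *Spry2* was held by 46, *Dusp6* by 76, *Shc1* by 33, *Spred2* by 7, *Spred1* by 5 and *Spry4* by 1 of the 164 cells. No cell held *Spry1*, which allows a share of up to 1.83%. In the cells that held them the median level was 191 CPM for *Spry2* and 164 CPM for *Dusp6*.

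The first comparison was of the ages. At P60, *Spry2* ranged over the 8 captures from 0 to 198 CPM with a median of 31.4 CPM, and at P120 the 4 captures had 145, 116, 0 and 230 CPM. The groups overlapped, with a capture at 0 in each age, where no cell held a read among 8 and 16 cells (shares of up to 37.5% and 18.8% are allowed). *Dusp6* ranged from 2.33 to 637 CPM at P60 (median 79.4 CPM) and was 528, 195, 524 and 127 CPM at P120. The P120 captures lay within the P60 range, whose highest value came from capture 31. *Shc1* ranged from 0 to 400 CPM at P60 (median 34.3 CPM) and was 85, 20.6, 0 and 101.8 CPM at P120. Its highest P60 value came from capture 17c, which held 3 cells. *Spred2* was 0 in 6 of 8 P60 captures and reached 10.5 CPM, and it was 4.54, 0.39, 0.11 and 2.56 CPM at P120.

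**Figure D1:**
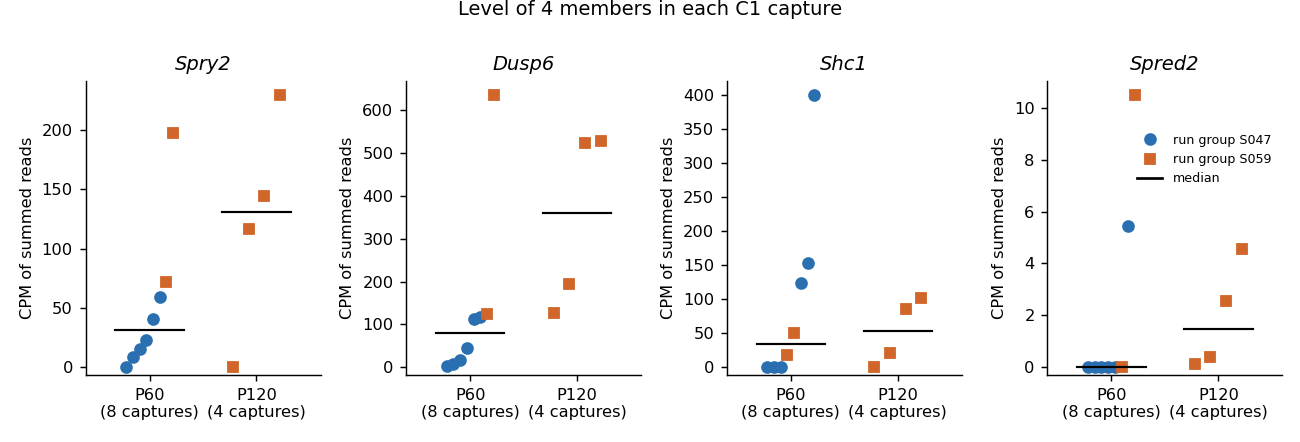
Level of 4 members (CPM, reads summed over the cells of a capture) in the 8 P60 and 4 P120 captures, each point being 1 capture, coloured by sequencing run group, and lines the medians. The ages overlapped for each gene plotted, with *Spry2* medians of 31.4 and 130 CPM and *Dusp6* medians of 79.4 and 360 CPM.

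Of the members, 4 passed the count filter, and none of them was called between ages in edgeR's quasi-likelihood test on counts summed per capture with Benjamini-Hochberg adjustment. Over all 8346 genes tested 0.120% were called, 0.0599% higher and 0.0599% lower. No member had an unadjusted p under 0.05, and neither DESeq2, which gave *Spred2* no adjusted p, nor limma called any. The log2 fold changes of P120 over P60 were 1.74 for *Dusp6* (standard error 1.47), 1.05 for *Spry2* (1.78), -0.66 for *Shc1* (1.92) and -0.12 for *Spred2* (1.78), against a median of 0.26 over all genes tested. Leaving out 1 capture at a time gave 0.67 (without capture 36) to 3.02 (without 31) for *Dusp6*, 0.26 (without 38) to 1.62 (without 40) for *Spry2*, and -1.52 (without 38) to -0.17 (without 17c) for *Shc1*. All P120 captures and 2 of the P60 captures were sequenced in 1 run group, and the other 6 P60 captures in another. The run groups were made here from the first 4 characters of the sequencing run names and are not a label of the authors. Within the shared run group, 4 against 2 captures, *Spry2* was -0.15, *Dusp6* 0.17 and *Shc1* 0.43 on the log2 scale, so that the *Spry2* and *Shc1* differences turned in direction. The share of cells with a read was 34.3% at P60 and 34.9% at P120 for *Spry2*, and 26.5% and 23.9% for *Shc1*. For *Dusp6* it was 50% and 66.1%.

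The second comparison was of cells with and without *Elane* and *Mpo*. A cell of at least 50000 reads was called positive where both genes together reached 100 CPM, which gave 36 positive cells in 7 captures and 128 negative cells. The sum had a median of 10244 CPM in the positive cells, and 8 cells lay between 50 and 200 CPM, near the limit. A positive cell need not hold both genes, since *Mpo* reached 10 CPM in all 36 and *Elane* in 30. Of the negative cells, 97 held some of these reads (median 6.94 CPM) and 31 none. The positive cells were deeper, with a median of 4792 genes detected against 1809 (2556.5 against 883 after thinning each cell to 50000 reads). The part of this gap in the results that follow was not tested beyond the thinned values given.

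*Spry2*, the Sprouty gene with the most reads, was held by 28 of 36 positive cells (77.8%, exact 95% interval 60.8% to 89.9%) and by 18 of 128 negative cells (14.1%, 8.6% to 21.3%). These intervals treat cells as independent draws, although 12 of the 36 positive cells came from capture 28. *Shc1* was held by 21 positive (58.3%) and 12 negative cells (9.4%). *Dusp6* was held by 23 positive (63.9%) and 53 negative cells (41.4%), a smaller gap, and its mean level went the other way, at 122 CPM in positive and 497 CPM in negative cells. Where a cell held *Dusp6*, the median was 58.7 CPM in positive and 192 CPM in negative cells. Over all cells of a class the median ran the other way, at 34.5 CPM in positive and 1.71 CPM in negative cells, whose highest cell had 16024 CPM. *Spred2* was held by 6 positive and 1 negative cells (16.7% and 0.8%), and *Spred1* by 4 and 1 (11.1% and 0.8%).

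**Figure D2:**
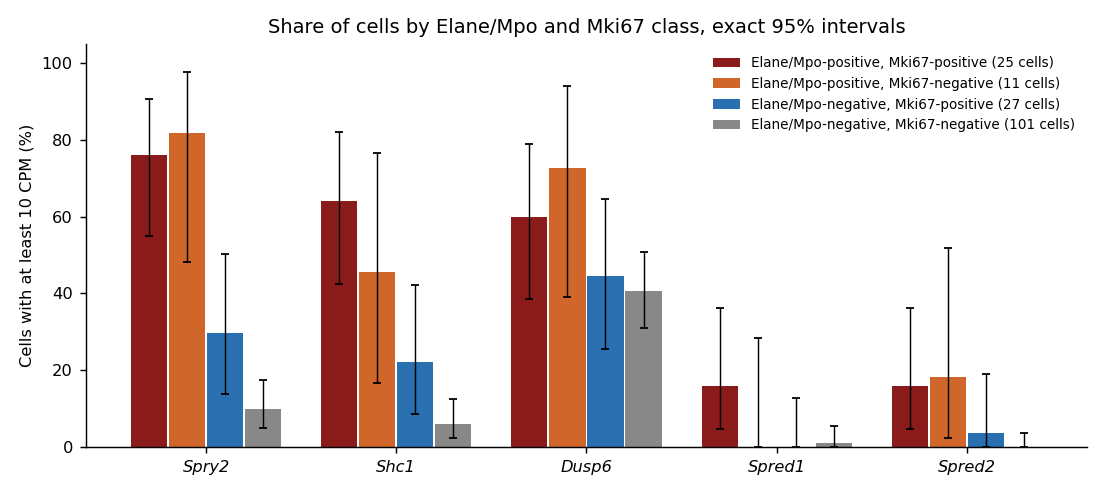
Share of cells (percent) with at least 10 CPM of 5 members, in cells of at least 50000 reads split by *Elane*/*Mpo* and *Mki67* together, with error bars for exact 95% binomial intervals. The intervals treat cells as independent draws, although cells share captures. *Spry2* was held by 76% and 81.8% of the *Elane*/*Mpo*-positive cells with and without *Mki67*, and by 29.6% and 9.9% of the negative cells.

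Tests were made within the 5 captures that held at least 3 cells of each class, with the capture as a block. The levels of *Spry2* summed over positive cells were 201 (capture 28), 164 (32), 750 (38), 541 (40) and 27.2 CPM (9c), against 116, 68.6, 78.4, 87.4 and 8.39 CPM in the negative cells of the same captures. It was higher in the positive cells of each of the 5. On these sums edgeR called none of the 4 members tested, and 0.956% of the 7533 genes tested (0.212% higher and 0.743% lower). *Spry2* had a log2 fold change of 1.08 (standard error 0.92, adjusted p = 0.695). *Shc1* had 0.95 (1.81, adjusted p = 0.882) and *Dusp6* -1.85 (1.13, adjusted p = 0.545) in the same edgeR test. *Spred2* had reads at or near 0 in the negative cells of 4 of these captures, so its fitted fold is no bound, and its adjusted p by edgeR was 0.220 (0.0117 unadjusted, the one member under 0.05).

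A sum gives a cell with many reads of a gene the most weight. Means over cells of log2(CPM + 1), in which each cell counts alike, were therefore tested with limma. For each gene limma draws the variance towards that of genes of like level. Its p-values thus rest only in part, and in some fits below hardly at all, on a gene's own spread between captures. For *Spry2* that spread was a standard deviation of 1.86. *Spry2* was higher by 5.07 in the positive cells (standard error 0.79, adjusted p = 1.05e-05 by limma with Benjamini-Hochberg adjustment), and higher in 5 of 5 captures, by 3.41 to 8.27. *Shc1* was higher by 3.67 (0.82, adjusted p = 0.00105 by limma), by 1.55 to 8.24 in 5 of 5 captures. *Spred2* was higher by 1.15 (0.37, adjusted p = 0.0178 by limma), by 0.34 to 1.75 in 5 of 5. *Dusp6* differed by 0.67 (0.77, adjusted p = 0.473 by limma) and was higher in the positive cells of 3 of 5 captures, from -0.79 to 2.96. So 3 of 4 members were called higher, *Spred2* among them. *Spred2* passed the count filter mostly through its reads in the positive cells, so its call is no support for a difference. Of all genes tested 35% were called higher and 1.38% lower (36.4% in all), and the median over all genes was 1.10. Genes higher in all 5 captures made up 34.5% of those tested, and genes lower in all 5 made up 2.22%. The *Spry2*, *Shc1* and *Spred2* calls stand beside that large share, so no difference from the other genes is read from their number.

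**Figure D3:**
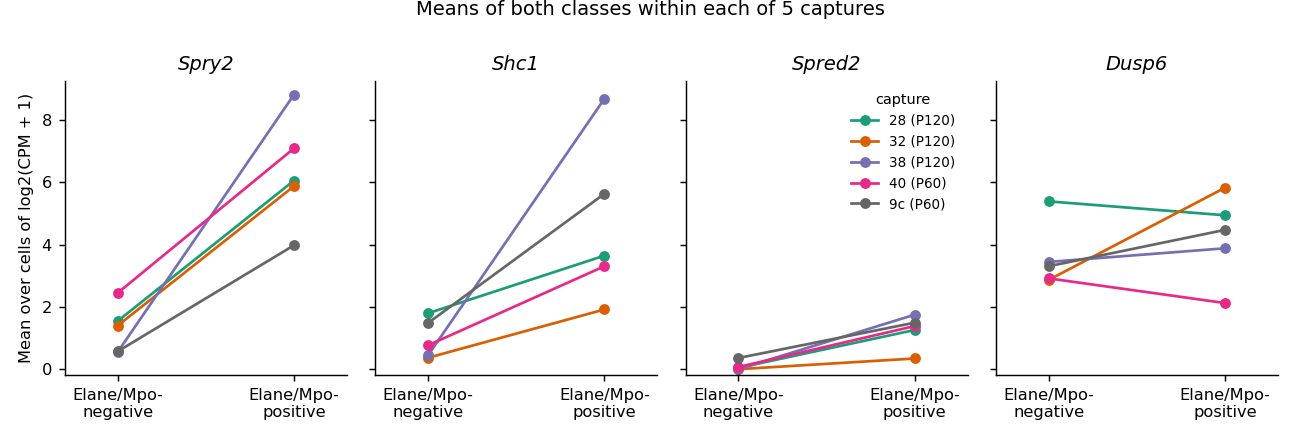
Mean over cells of log2(CPM + 1) of 4 members in *Elane*/*Mpo*-negative and positive cells of the 5 captures compared, joined by a line for each capture. *Spry2* lay higher in the positive cells of all 5 captures, by 3.41 to 8.27, and *Dusp6* in 3 of 5.

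After thinning to 50000 reads per cell, limma gave differences of 4.87 for *Spry2*, 3.49 for *Shc1* and 1.21 for *Spred2*, with 21.4% of all genes called higher. The standard errors of that fit came almost wholly from the variance shared between genes. Its adjusted p of 1.42e-06 for *Spry2* by limma is therefore no measure of that gene's spread between captures. In 13 of the 36 positive cells the sum of *Mcpt8* and *Prss34*, proteases of basophils and mast cells, reached 100 CPM or more. Without these cells, in 3 captures, *Spry2* stayed higher by 3.97 (limma adjusted p = 0.00780) where 13.2% of genes were called higher, and *Shc1* (2.82, adjusted p = 0.0577 by limma) and *Spred2* (1.37, adjusted p = 0.0978) were not called. The *Dusp6* difference was then -0.56, and this fit too drew its variance mostly from the genes together. Among *Mki67*-negative cells alone, in 3 captures, *Spry2* was higher by 4.92 (adjusted p = 0.0307 by limma) where 6.07% of genes were called higher, and *Shc1* (2.51, adjusted p = 0.191 by limma) was not called. On sums DESeq2 called 1 of the 4 members, *Spred2* (adjusted p = 5.00e-05), with the same limit from the count filter. Of all genes tested DESeq2 called 22.5%, 12.4% higher and 10.1% lower. The difference between ages in this class effect was called for none of 7533 genes by edgeR (0.00%, with 197 at an unadjusted p under 0.05). It set captures 28, 32 and 38 (P120) against 40 and 9c (P60). The estimates were -0.13 for *Spry2* (standard error 2.02), 2.39 for *Shc1* (3.83) and -0.94 for *Dusp6* (2.35). With errors this wide, equal effects at both ages are not read from it. *Spry2* was held by 71.4% of positive and 16.7% of negative cells at P60, and by 81.8% and 11.3% at P120.

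*Shc1* and *Dusp6* differed from *Spry2* in how sums and cells compared. In captures 28, 32, 38, 40 and 9c the *Shc1* sums over positive cells were 51.2, 34.9, 436, 50.8 and 53.1 CPM, and those over negative cells 103.4, 6.16, 4.36, 6.90 and 164 CPM. The positive cells were thus lower on sums in captures 28 and 9c, although *Shc1* was held by 6 of 12 positive against 4 of 19 negative cells in the first and by 4 of 4 against 2 of 14 in the second. In capture 38 *Shc1* was held by 3 of 3 positive and 1 of 18 negative cells, and without that capture its log2 fold change on sums was -0.018, against 1.89 without capture 9c. The *Dusp6* sums were 84.3, 269, 38.8, 61.3 and 148 CPM over positive cells and 767, 121, 153, 145 and 99.1 CPM over negative cells, with positive cells lower in 3 of 5 captures, and the *Dusp6* log2 fold change on sums ran from -2.48 without capture 32 to -1.19 without capture 28. *Spred2* was held by 3 of 12, 0 of 7, 1 of 3, 1 of 7 and 1 of 4 positive cells, and by 1 of the 14 negative cells of capture 9c and none of the others there.

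Of the 13 *Elane*/*Mpo*-positive cells at that *Mcpt8* and *Prss34* limit 84.6% held *Spry2* and 84.6% held *Dusp6*, and of the 23 under it 73.9% held *Spry2* and 52.2% held *Dusp6*. *Shc1* was held by 53.8% and 60.9%. *Elane* was held by 53.8% and 100%, with medians of 11.6 and 16231 CPM. *Mpo* was held by all cells of both groups, with medians of 643 and 11582 CPM. The 2 cells that passed the supporting cell list but not the leukocyte list, both from capture 21c, had *Spry2* at 408 and 5.65 CPM and no read of *Dusp6*, *Shc1*, *Spred1*, *Spred2*, *Spry1* or *Spry4*.

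The third comparison was of cells with *Mki67* at 20 CPM or more (52 cells) against the other 112, with 8 cells between 10 and 40 CPM. The classes crossed: 25 cells were positive for both, 11 for *Elane*/*Mpo* alone, 27 for *Mki67* alone and the rest for neither. *Spry2* was held by 76%, 81.8%, 29.6% and 9.9% of these, in that order. *Shc1* was held by 64%, 45.5%, 22.2% and 5.9%. In both genes the *Elane*/*Mpo*-positive cells stood highest with or without *Mki67*. In edgeR on sums over 6 captures none of the 3 members tested was called and 0.466% of 7295 genes were (0.0960% higher and 0.370% lower), with no member at an unadjusted p under 0.05. DESeq2 called none of the 3, and 26.5% of genes, 17.8% higher and 8.69% lower. In edgeR *Dusp6* had a log2 fold change of -2.07 (standard error 1.15, adjusted p = 0.588), *Shc1* 0.86 and *Spry2* 0.68. Leaving out 1 capture at a time gave -2.76 (without capture 38) to -1.30 (without 31) for *Dusp6*, 0.36 (without 40) to 1.52 (without 9c) for *Shc1*, and 0.11 (without 9c) to 1.28 (without 28) for *Spry2*. On means over cells, limma called *Spry2* (2.48, standard error 0.60, adjusted p = 0.00192) and *Shc1* (2.02, standard error 0.57, adjusted p = 0.00662), each higher in 6 of 6 captures, with 34.2% of genes called higher and 1.23% lower (35.4% in all), and after thinning 20.6% higher. Genes higher in all 6 captures made up 24.1% of those tested, and genes lower in all 6 made up 0.932%. Within *Elane*/*Mpo*-negative cells, in 4 captures, *Spry2* (1.13, adjusted p = 0.335 by limma) and *Shc1* (1.13, adjusted p = 0.349 by limma) were not called, where 4.72% of genes were called higher. *Dusp6* had a difference of -0.57 on means and was higher in the *Mki67*-positive cells of 1 of 6 captures, and without capture 31 the difference was 0.24. It was held by 51.9% of *Mki67*-positive and 43.8% of negative cells.

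**Figure D4:**
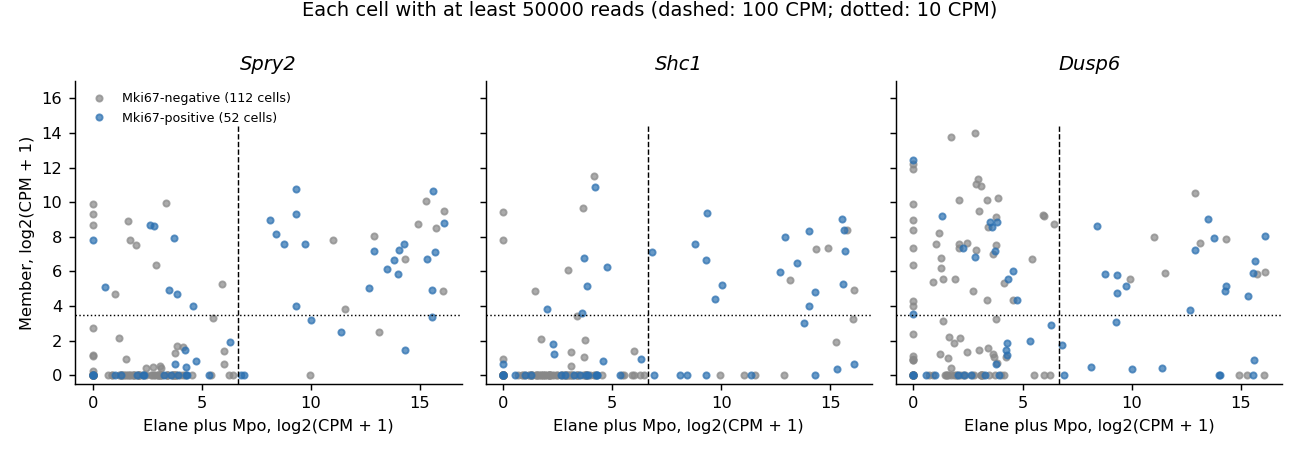
Level of *Spry2*, *Shc1* and *Dusp6* in each of the 164 cells of at least 50000 reads, against the summed level of *Elane* and *Mpo* in the same cell, both axes in log2(CPM + 1), with points coloured by *Mki67* class and lines at the limits of 100 and 10 CPM. Points at high *Elane* and *Mpo* mostly held *Spry2* (28 of 36), while *Dusp6* was held on both sides of the limit.

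Members were seen together in single cells after thinning to 50000 reads. Of the 164 cells, 47 held a read of *Spry2*, 77 of *Dusp6* and 33 of *Shc1*. *Spry2* and *Dusp6* shared 28 cells, *Spry2* and *Shc1* 18, and *Dusp6* and *Shc1* 20. Of the *Spry2* and *Shc1* cells, 17 of the 18 were *Elane*/*Mpo*-positive. Positive cells held several members at 10 CPM more often, with 4 holding 4 members, 12 holding 3, 12 holding 2, 6 holding 1 and 2 holding none. Of the 128 negative cells 64 held none, 46 held 1, 14 held 2 and 4 held 3. The cells share their library and capture, so these counts describe the cells and no test was made of them.

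**Figure D5:**
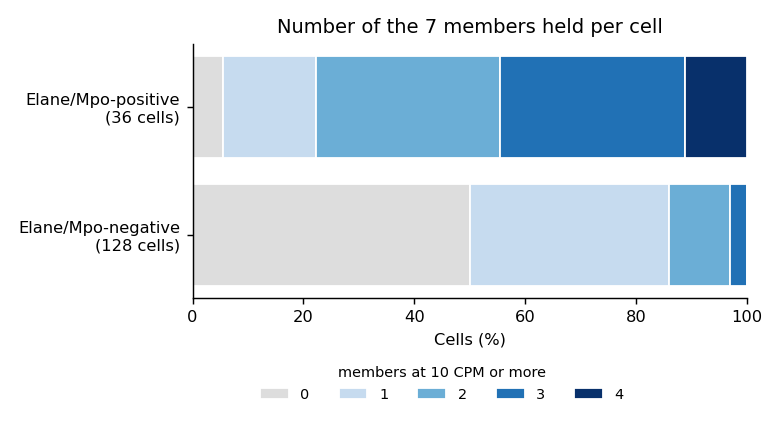
Share of *Elane*/*Mpo*-positive (36) and negative (128) cells by the number of members held at 10 CPM or more. In 2 of 36 positive cells no member was held, and in 64 of 128 negative cells none was.

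Over the 164 cells, *Spry2* had a Spearman correlation of 0.47 with *Mpo*, 0.43 with *Elane*, 0.30 with *Mki67* and 0.30 with *Shc1*. *Shc1* had 0.43 with *Mpo*, 0.42 with *Elane* and 0.37 with *Mki67*. *Dusp6* had 0.03 to 0.14 with these genes. Its values with *Elane*, *Mpo* and *Mki67* were -0.28, 0.20 and -0.14 within the 36 positive cells. They were -0.00073, 0.10 and 0.06 within the 128 negative cells. For *Shc1* the same values were 0.16, 0.26 and 0.12, and then 0.07, -0.0072 and 0.22. Within the 36 positive cells *Spry2* had 0.25 with *Mpo*, 0.25 with *Shc1*, 0.06 with *Elane* and 0.10 with *Mki67*. Within the 128 negative cells it had -0.08 with *Mpo*, -0.06 with *Shc1*, 0.11 with *Elane* and 0.07 with *Mki67*, so the values over all cells were mostly lower within a class. The GFP intensity in images of the captured cells had -0.26 with *Spry2*, -0.19 with *Shc1* and -0.16 with *Dusp6*, and its median was 175 in *Elane*/*Mpo*-positive and 377.5 in negative cells on the deposited scale. These are descriptions over cells that share captures and differ in depth. Among 2135 genes read in enough cells to compare, those nearest to *Spry2* were *Rpl10a* (0.64, a ribosomal protein), *Rpn2* (0.59, of the oligosaccharyl transferase) and *Sec61g* (0.58, of the protein translocation channel). The nearest to *Shc1* was *Cst7* (0.62, a cystatin) with *Spn* (0.57, leukosialin) and *Dek* (0.56, a chromatin protein) next. The nearest to *Dusp6* was *Uqcrq* (0.32, of the respiratory chain), then *Csnk2a2* (0.28, a casein kinase subunit) and *Pitpnc1* (0.27, a phosphatidylinositol transfer protein).

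The rest of the pathway was described from 121 genes by role. Per kilobase, the highest of each role were *Fos* (861 CPM per kb, an ERK-driven transcription factor gene), *Csf3r* (253, the G-CSF receptor), *Dusp1* (759, a MAP kinase phosphatase), *Mapk3* (58.2, ERK1), *Grb2* (34.5, the SHC1 partner), *Rap1b* (317, a RAS-family GTPase), *Csf1* (18.6, a macrophage growth factor) and *Rasa1* (12.3, a RAS GTPase activator). Of 60 listed genes tested between ages, edgeR called 0 higher and 0 lower (4 at an unadjusted p under 0.05). Between *Elane*/*Mpo* classes 58 were tested and edgeR called 1, *Fos*, which fell by 2.30 (log2 scale, standard error 0.50, adjusted p = 0.0484). Between *Mki67* classes 57 were tested and edgeR called 1, *Csf3r*, which fell by 3.14 (adjusted p = 0.0216). Over all genes edgeR called 0.120%, 0.956% and 0.466% in these comparisons, and 1 of 58 or of 57 is not read as more than that. No adaptor, RAS protein, RAS GTPase activator, kinase or other feedback inhibitor was called by edgeR in these comparisons.

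On means over cells, limma called 16 of the 58 genes higher and 2 lower in *Elane*/*Mpo*-positive cells. Of all genes tested 35% were called higher and 1.38% lower. Among kinases and scaffolds 5 of 13 were called higher, including *Rps6ka1* (2.79, an ERK-activated kinase). Among receptors 2 of 7 were, and among ERK targets 3 of 11, with *Jun* at 3.26 and *Ier3* at 2.87. *Pebp1* (2.84) was the highest of the 2 of 7 other feedback inhibitors called higher. The 2 lower were *Rasgrp4* (-2.91, an exchange factor) and *Dusp1* (-1.70). The median over the 58 was 0.95, beside 1.10 for all genes. Between *Mki67* classes 13 of 57 were called higher, led by *Cbl* (2.72, a ubiquitin ligase), *Mapk3* (2.29), *Rps6ka1* (2.27), *Nras* (2.25) and *Jun* (2.06), beside 34.2% of all genes, and 4 lower, beside 1.23%, namely *Csf3r* (-2.59), *Dusp1* (-2.18), *Rasgrp4* (-2.18) and *Egr1* (-1.97), with a median of 0.63 beside 0.82.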

How the data were processed

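The deposited matrix holds counts per gene and cell, aligned by the authors with STAR to mm10 per the labels. The authors' cell table gives age, capture and a GFP intensity score, scaled by the authors in a way not given in the sources used here. The 92 spike-in entries were set aside. Sums were made over the cells of each capture, split by class for the class tests, where capture was the block. These were tested with edgeR 4.0.16 (quasi-likelihood, TMM, filterByExpr) in R 4.3.3. Alternatives were DESeq2 1.42.0 and limma 3.58.1 on means of log2(CPM + 1), cells thinned to 50000 reads, other class limits, and leaving out captures. Classes used cells of at least 50000 reads, with limits of 100 CPM for Elane plus Mpo and 20 CPM for Mki67, and captures with at least 3 cells of each class. Adjusted p under 0.05 was called. Summaries used Python 3.11.15, numpy 2.4.6, pandas 2.3.3 and scipy 1.17.1. Genes were named by Ensembl identifier, and 48349 of 48709 had a symbol. Captures are taken as replicates because the cell table gives them, not because the animals are known to be independent. Doublets were not called. The members, the pathway and marker lists were chosen with earlier results of these data known. The genes named are the 7 members, up to 5 called pathway genes in each direction with the largest change, the highest pathway gene of each role per kilobase, and the 3 genes nearest to each member read in at least 10% of thinned cells, among genes read in at least 20%. A called pathway gene that this rule would name is not reported here.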

Additional observations from a re-analysis of the deposited data

Results flagged for a closer look

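Values far from the others of the same age were looked for over captures in 35 groups, of which 12 had one. The error rate of this rule, 1 in 20, holds only for normally distributed values. A group with reads in 1 capture alone is always flagged, and level and share of a gene were separate groups. The count of 12 is therefore not compared with that rate. *Spry2* was 198 CPM in P60 capture 40, the next highest P60 capture being 71.6 CPM. *Dusp6* was 637 CPM in P60 capture 31, next to 125 CPM. *Shc1* was 400.3 CPM in P60 capture 17c, which held 3 cells, next to 153 CPM. *Spry4* was 42.4 CPM in P120 capture 28, from 1 cell, next to 0.0382 CPM, and 0.397 CPM with a read in 16.7% of cells in P60 capture 40 where the others had none. *Spred1* was 1.27 CPM in P120 capture 28, next to 0.0599 CPM. *Spry1* was 0.174 CPM (4.17% of cells) in P60 capture 40 and 0.0226 CPM (2.70% of cells) in P120 capture 28, and 0 in the other captures. The *Spry2* difference between *Elane*/*Mpo* classes on means was 8.27 in capture 38, which held 3 positive cells, next to 4.65.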

How the results depend on the processing

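Genes called between ages numbered 10, and 22 with no filter on low counts, 1 after thinning, 0 on means by limma, 0 with run group as a term, 2 in run group S059 and 0 in *Elane*/*Mpo*-negative cells, the last chosen after seeing the data. Leaving out each capture gave 1 to 16. Between *Elane*/*Mpo* classes 72 were called (16 higher), 1696 by DESeq2 (933 higher), 161 with no filter, 120 after thinning, 2740 by limma, 3 with a class limit of at least 1 thinned read, 16 with at least 5 cells in a class and 20 where the block was capture with run, a setting chosen after seeing the data. Leaving out a capture gave 27 to 63, and without TMM factors 49 were called (26 higher). Members called were 1 by DESeq2 and 3 by limma, both with *Spred2*, which passed the count filter mostly through the positive cells. On means, genes called were 1679 thinned, 1027 without *Mcpt8*/*Prss34* cells and 483 in *Mki67*-negative cells, where 1 and 1 members were called, and 1675 to 2221 leaving out a capture, with 2 to 3 members. Without capture 28, *Spred2* was not called (adjusted p = 0.0606). Between *Mki67* classes 34 were called, 1932 by DESeq2, 96 with no filter, 64 thinned, 2582 by limma (2 members), 11 at a limit of 100 CPM, 14 with at least 5 cells, 2 in *Elane*/*Mpo*-positive cells, 15 without TMM factors and 92 in *Elane*/*Mpo*-negative cells, with 5 to 68 leaving out a capture. On means these were 1577 thinned and 366 in *Elane*/*Mpo*-negative cells, where 0 members were called, and 1552 to 2575 leaving out a capture. Settings that turned a direction were, for age, *Spry2* -0.21 with run group as a term and -0.15 in run group S059, *Shc1* 0.36 and 0.43 in the same settings, and *Spred2* 0.14 by limma and 0.25 without capture 32 and 0.25 without capture 36 (-0.65 to 0.25 over captures left out). For the *Elane*/*Mpo* classes they were *Dusp6* 0.67 by limma and -0.56 on means without *Mcpt8*/*Prss34* cells, and *Shc1* -1.02 on sums without those cells and -0.018 without capture 38 (-0.018 to 1.89 over captures left out). For the *Mki67* classes they were *Spry2* -0.58 in *Elane*/*Mpo*-negative cells, *Dusp6* 0.24 on means without capture 31 and, with no replicate block, *Shc1* -0.037. With no replicate block 59 and 28 genes were called between *Elane*/*Mpo* and *Mki67* classes. The cause of these changes was not tested.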
